A study of Capra hircus with 21 samples.

Results

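The change in the transcriptome of the goat (Capra hircus) between the oocyte and the 8-cell embryo was followed by sequencing of total RNA, over an interval held to lie ahead of the main activation of the embryonic genome in ruminants. Libraries A to C of 8-cell embryos (n = 3) were set against libraries A to C of oocytes (n = 3). The series title gives maturation and development in vivo for all groups, and no treatment, strain or age is labelled. Whether the oocytes were immature or mature is not labelled either. These 6 were taken from a series of 21 libraries by their titles, and the 3 libraries each of 2-cell and 4-cell embryos served only to order the change in time. All genes were considered. Of the 19040 genes listed, 4253 had at least 1 RPKM in at least 3 of the 21 libraries and were tested. How many oocytes or embryos went into a library, and whether replicate libraries stand for different animals, is not in the labels. Each p-value thus speaks for the spread among libraries, and that spread may be technical. For the p-values of single genes it is a spread shared by all 21 libraries, later stages included. RPKM, the deposited unit, is the reads of a gene per kilobase and per library size, and the kilobases here are those of the whole locus, introns included. A gene was called changed when its Benjamini-Hochberg adjusted p, from limma over all genes tested, was below 0.05 and its log2 fold change of RPKM + 1, 8-cell minus oocyte, was at least 1 in either direction.

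A fully grown oocyte is nearly silent in transcription, and it stores messenger RNAs that drive maturation, fertilization and the first cleavages. Many of these RNAs are kept with short poly(A) tails and are lengthened, translated or removed on a schedule, with BTG4 and the CCR4-NOT deadenylase among the known clearance factors in mice. In ruminants the embryo takes over transcription in earnest only after several cleavages, later than in mice. An RPKM value is a share of the reads of a library, so a gain of one transcript and a loss of the others cannot be told apart, and neither can fewer cells and less RNA per cell.

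The 8-cell libraries held 47.9 to 55.8 M reads in all, of which 19.2 to 23.5 M lay in listed genes, and the oocyte libraries held 46.8 to 54.0 M, of which 16.5 to 19.6 M lay in listed genes, as recovered from the smallest steps between values. Genes at 1 RPKM or more numbered 2871, 2872 and 2926 in 8-cell libraries A, B and C, against 2491, 2516 and 2197 in oocyte libraries A, B and C. The stages did not overlap, with means of 2890 ± 31.5 and 2401 ± 177 (SD, n = 3 each), and the exact two-sided permutation p was 0.1, the smallest that 3 libraries against 3 allow. Oocyte library C stood apart from its mates: it correlated with them at 0.969 and 0.956, against 0.986 between A and B, and its mitochondrial genes took 3.46% of the reads in genes, against 0.953 and 0.796%. 8-cell library C correlated with A and B at 0.963 and 0.965, against 0.988 between A and B. Between the stages the correlations of log2(RPKM + 1) ran from 0.867 to 0.900.

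Of the 4253 genes tested, 489 were called (11.5%), of which 341 were higher (8.02%) and 148 lower (3.48%) in 8-cell embryos than in oocytes. Of the 341, 145 had an oocyte mean below 1 RPKM. A gene under 1 RPKM in every oocyte library passed the filter only through other stages. Its call, and its part in any share of a list, is therefore a description. The median gene was higher by 0.15 log2 units, and stood at -0.0103 with quantile normalization. Higher genes thus made up 69.7% of the calls on RPKM, but 56.1% when libraries were scaled to the reads in the listed genes (252 higher and 197 lower) and 46.4% with quantile normalization (268 and 310). The balance between rises and falls therefore depends on scaling, whereas no gene called on RPKM was called with the opposite sign under any of the 22 alternatives. Without oocyte library C, 230 genes were higher and 143 lower. Without 8-cell library B the count was 248 and 77, and without oocyte library A 299 and 91.

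**Figure D1:**
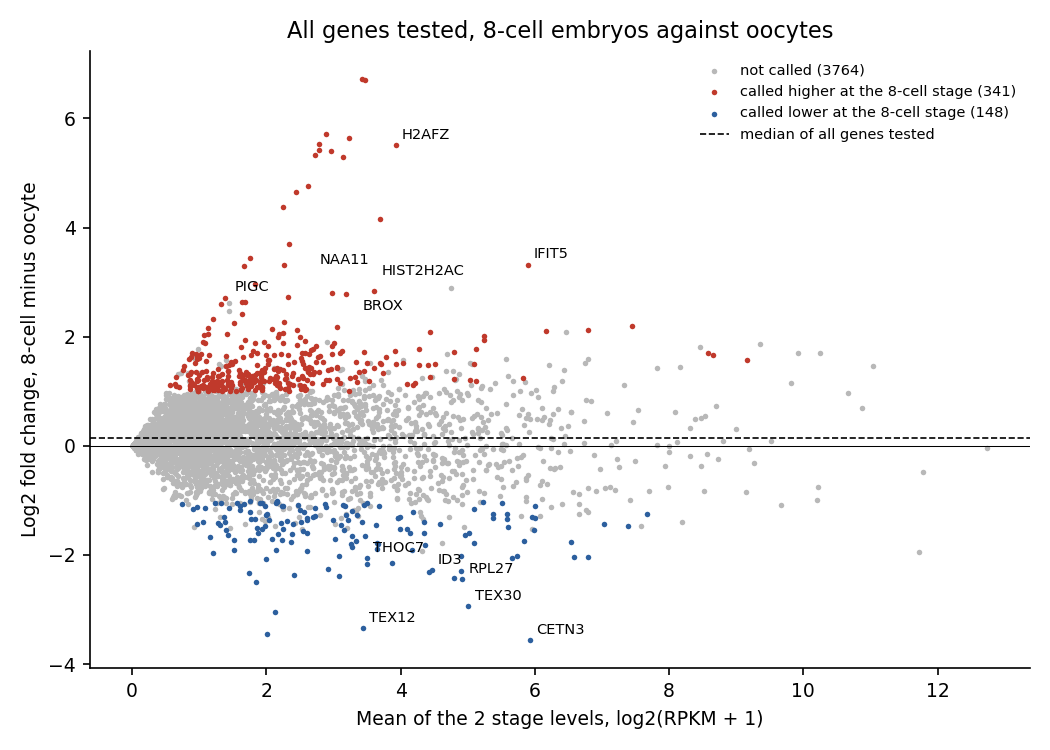
Each point is 1 of the 4253 genes tested, with its mean level in the 8-cell and oocyte stages on the x axis (log2(RPKM + 1)) and its log2 fold change, 8-cell minus oocyte, on the y axis. The 341 genes called higher are red, the 148 called lower blue, and the largest changes of genes with a symbol are named; H2AFZ and CETN3 stand farthest out among the named genes.

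H2AFZ, which encodes the histone variant H2A.Z, had the largest rise among genes with a symbol at 10 RPKM or more. It reached 53.8, 96.7 and 165 RPKM in 8-cell libraries A, B and C, against 0.996, 0.589 and 1.97 RPKM in oocyte libraries A, B and C. Every 8-cell library lay far above every oocyte library, with a log2 fold change of 5.51 (SE 0.54, adjusted p = 5.71e-06). The gene stood at 0.227 RPKM in 2-cell and 2.18 RPKM in 4-cell embryos, so nearly the whole rise fell in the last cleavage interval. By the coordinates of the table it lies at 6:24995383-24997922 on the plus strand. HIST2H2AC, a core histone H2A gene, had 19.3, 30.8 and 46.0 RPKM in 8-cell libraries and 2.88, 4.44 and 2.997 RPKM in oocyte libraries (log2 fold change 2.83, adjusted p = 0.000745). It too changed mainly after the 4-cell stage, where its mean was 5.24 RPKM.

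Other large rises were already present in 2-cell embryos. PIGC, an enzyme of glycosylphosphatidylinositol anchor synthesis, had 11.3, 12.3 and 12.1 RPKM in 8-cell libraries and 1.05, 0.821 and 0.982 RPKM in oocyte libraries (log2 fold change 2.73, adjusted p = 0.000225), and averaged 9.04 RPKM in 2-cell embryos. BROX, an ESCRT-associated protein, had 31.3, 24.9 and 14.4 RPKM in 8-cell libraries and 2.53, 2.57 and 2.13 RPKM in oocyte libraries (log2 fold change 2.79, adjusted p = 0.000359). NAA11, the catalytic subunit of an N-terminal acetyltransferase, had 9.88, 20.5 and 30.5 RPKM in 8-cell libraries and 3.06, 1.25 and 1.40 RPKM in oocyte libraries (log2 fold change 2.80, adjusted p = 0.00419). PIGC was even across its 8-cell libraries, while NAA11 spread about its mean by an SD of 10.3 RPKM. ARF1, a small GTPase of Golgi vesicle coats, averaged 43.2 ± 3.80 RPKM in 8-cell embryos and 9.59 ± 2.65 RPKM in oocytes (log2 fold change 2.09, adjusted p = 0.00142). ATF4, a transcription factor of the integrated stress response, averaged 73.5 ± 16.8 RPKM and 18.3 ± 4.12 RPKM (1.95, adjusted p = 0.00223), and MRPL17, of the large subunit of the mitochondrial ribosome, 10.8 ± 3.70 RPKM and 2.04 ± 0.470 RPKM (1.92, adjusted p = 0.00198). Each of these genes was called with every library left out in turn.

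The remaining large rises were less steady. IFIT5, an interferon-induced RNA-binding protein, had 119, 104 and 161 RPKM in 8-cell libraries and 16.8, 61.3 and 0.841 RPKM in oocyte libraries (log2 fold change 3.32, adjusted p = 0.0207). The oocyte libraries differed widely among themselves, and the call was lost without oocyte library C or any 8-cell library (adjusted p up to 0.148). HSPA8, the constitutive cytosolic HSP70 chaperone, had 185, 206 and 71.7 RPKM in 8-cell libraries and 27.2, 36.4 and 31.9 RPKM in oocyte libraries (2.11, adjusted p = 0.00878, and 0.0537 without 8-cell library B). RF00012, listed under an RNA family identifier and annotated as a small nucleolar RNA, averaged 16.2 ± 8.17 RPKM in 8-cell embryos and 2.97 ± 1.99 RPKM in oocytes (2.18, adjusted p = 0.0485), and its call did not survive the removal of any single library.

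**Figure D2:**
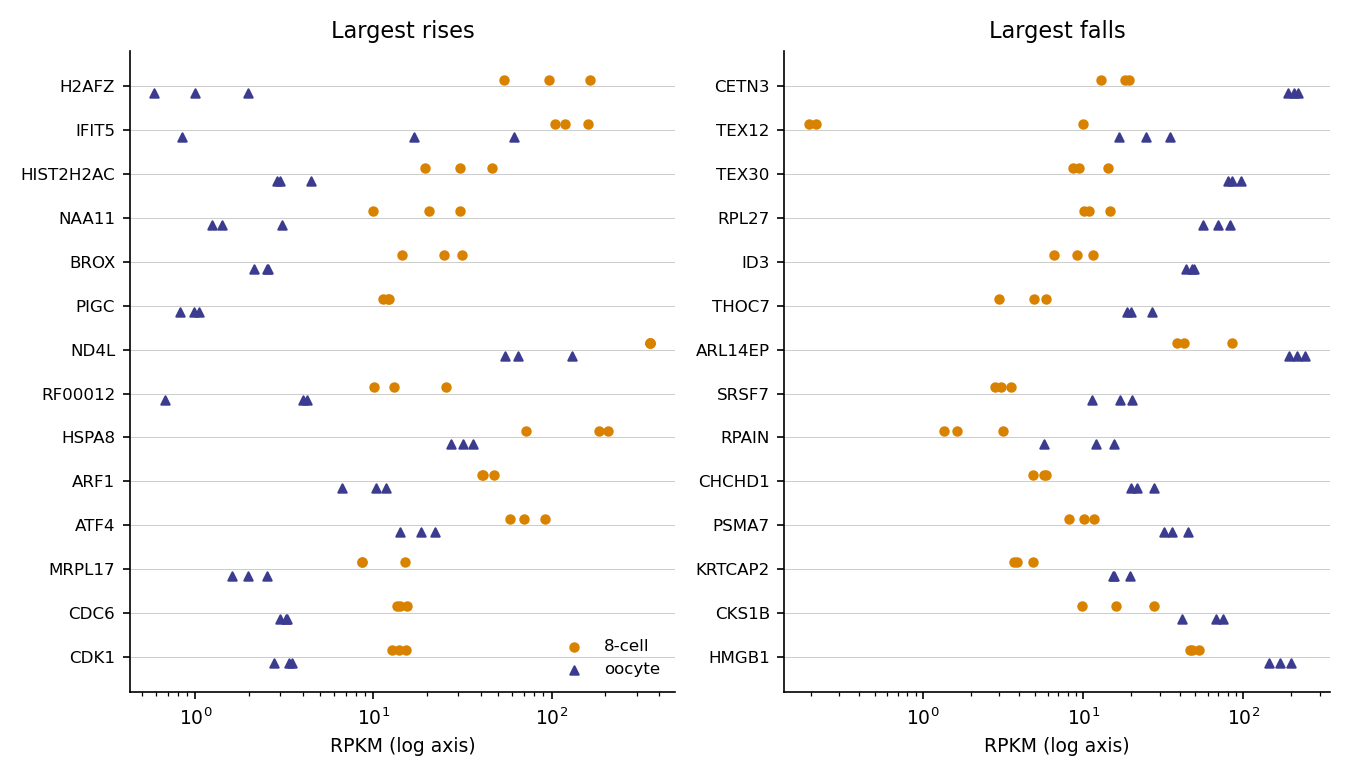
RPKM on a log axis in each 8-cell library (orange circles) and each oocyte library (blue triangles) for the 14 largest rises and the 14 largest falls that carry a symbol, reach 10 RPKM and do not overlap between the stages. Among the rises IFIT5 has the widest oocyte spread, from 0.841 to 61.3 RPKM, and among the falls TEX12 has 8-cell libraries at 0.195, 0.214 and 9.96 RPKM.

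CETN3, which encodes a centrin of the centrosome, had the largest fall. It stood at 19.3, 12.9 and 18.2 RPKM in 8-cell libraries A, B and C, against 190, 209 and 219 RPKM in oocyte libraries A, B and C (log2 fold change -3.55, adjusted p = 0.000265). The libraries of each stage lay close together, and the 2-cell and 4-cell means, 70.2 and 69.0 RPKM, lay between the stages. CETN3 lies at 7:20573114-20592660 on the plus strand. TEX30 had 8.67, 9.37 and 14.2 RPKM in 8-cell libraries and 84.7, 80.8 and 96.3 RPKM in oocyte libraries (log2 fold change -2.93, adjusted p = 0.000717). ID3, an inhibitor of basic helix-loop-helix transcription factors, had 9.21, 11.5 and 6.60 RPKM in 8-cell libraries and 48.1, 44.2 and 49.4 RPKM in oocyte libraries (-2.28, adjusted p = 0.000565). ID3 was still at 45.3 RPKM in 2-cell embryos and at 18.2 RPKM in 4-cell embryos, which sets it among the few genes whose largest step fell between those stages.

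TEX12, a component of the synaptonemal complex that pairs meiotic chromosomes, had 0.195, 0.214 and 9.96 RPKM in 8-cell libraries and 34.9, 16.7 and 24.7 RPKM in oocyte libraries (log2 fold change -3.34, adjusted p = 0.00905). 8-cell library C was more than an order of magnitude above its mates, and without 8-cell library B the adjusted p was 0.0542. HMGB1, an abundant DNA-bending chromatin protein, averaged 49.3 ± 3.53 RPKM in 8-cell embryos and 170 ± 26.4 RPKM in oocytes (-1.76, adjusted p = 0.00905). CKS1B, a binding partner of cyclin-dependent kinases, averaged 17.9 ± 9.18 RPKM and 61.1 ± 17.2 RPKM (-1.79, adjusted p = 0.0141), a call lost without oocyte library A or 8-cell library B (up to 0.0919). ARL14EP averaged 55.5 ± 26.0 RPKM in 8-cell embryos and 217 ± 25.4 RPKM in oocytes (-2.03, adjusted p = 0.0348). That call held only without 8-cell library C and was lost without any of the other 5 libraries (up to 0.126). The other large falls were called with each library left out. They were THOC7 (log2 fold change -2.06), of the THO messenger RNA export complex, the splicing factor SRSF7 (-2.02), RPAIN (-1.94), a carrier of replication protein A into the nucleus, CHCHD1 (-1.89), of the mitochondrial ribosome, PSMA7 (-1.81), of the proteasome core, and KRTCAP2 (-1.79), of the oligosaccharyltransferase.

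The oocyte transcripts that are best known did not follow a single course. GDF9, a growth factor secreted by the oocyte, had 178, 208 and 188 RPKM in 8-cell libraries and 62.3, 55.0 and 72.4 RPKM in oocyte libraries. The stages did not overlap, yet the adjusted p was 0.0887 (log2 fold change 1.59) in the fit that shares its spread with all 21 libraries. BTG4 had 185, 151 and 186 RPKM in 8-cell libraries and 445, 297 and 715 RPKM in oocyte libraries (-1.39, adjusted p = 0.186). With only the 12 libraries from oocyte to 8-cell in the fit, the adjusted p was 0.000237 for GDF9 and 0.00335 for BTG4, and over all alternatives it ran from 5.49e-06 to 0.199 and from 0.000174 to 0.449. The same 12 libraries also gave calls for H1FOO, the oocyte linker histone (1.2, adjusted p = 0.00615, against 0.161 with 21 libraries), for OOEP, of the subcortical maternal complex (-1.06, 0.0154 against 0.356), and for POLR2G, a subunit of RNA polymerase II (1.23, 0.0031 against 0.152). Over the alternatives the adjusted p of H1FOO ran from 0.000423 to 0.385, that of OOEP from 0.00147 to 0.546 and that of POLR2G from 0.0011 to 0.47. BMP15, a partner of GDF9, averaged 84.5 ± 10.5 RPKM in 8-cell embryos and 43.4 ± 12.7 RPKM in oocytes, and ZP4, an egg coat glycoprotein, 43.0 ± 14.6 RPKM and 21.9 ± 10.3 RPKM. Neither was called, but both were with array weights (adjusted p = 0.000144 and 1.5e-05). Over the alternatives the adjusted p of BMP15 ran up to 0.51 and that of ZP4 up to 0.506. MOS, the kinase that holds the egg in meiotic arrest, averaged 35.1 ± 4.64 RPKM in 8-cell embryos and 30.6 ± 8.56 RPKM in oocytes (adjusted p = 0.878 and not called under any alternative).

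Of the 12 maternal-effect genes tested, 1 was higher and 1 lower (8.33% each, against 8.02 and 3.48% of all genes tested). Their median log2 fold change was -0.07, against 0.15 over all genes. NLRP9, an NLR-family gene of oocytes, had 5.74, 6.53 and 4.40 RPKM in 8-cell libraries and 1.18, 1.06 and 0.808 RPKM in oocyte libraries (log2 fold change 1.69, adjusted p = 0.000492). NPM2, a histone chaperone that unpacks sperm chromatin in mice, had 2.09, 1.84 and 2.60 RPKM in 8-cell libraries and 7.78, 5.84 and 4.13 RPKM in oocyte libraries (-1.09, adjusted p = 0.0108). The NPM2 call was lost without oocyte library A or 8-cell library B (up to 0.0636) and with other pseudocounts. With the 12 libraries alone 2 of the 12 genes were higher and 3 lower, against 415 and 199 of all 4253 genes. None of the 5 tested genes of oocyte-secreted factors and the egg coat was called, at a median of 0.96. Array weights gave 3 higher, and quantile normalization, median-ratio scaling and the 12 libraries alone gave 1 each. Over all 4253 genes these settings gave 402, 268, 445 and 415 higher. Among the 7 tested genes of DNA methylation, also with no call, the maintenance methyltransferase DNMT1 averaged 13.1 ± 4.88 RPKM in 8-cell embryos and 10.1 ± 4.14 RPKM in oocytes.

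Of 22 tested genes of meiotic arrest and exit, 5 were higher (22.7%, against 8.02% of all genes tested) and 0 lower, at a median of 0.48, against 0.15 over all genes. CDK1, the catalytic subunit of M-phase promoting factor, had 12.6, 15.2 and 13.8 RPKM in 8-cell libraries and 3.33, 3.47 and 2.77 RPKM in oocyte libraries (log2 fold change 1.83, adjusted p = 0.00919). The others were BUB3 (1.52) and TTK (1.41), of the spindle checkpoint, MASTL (1.15), which restrains the phosphatase opposing CDK1, and CDC25C (1.14), which activates CDK1. TTK was lost without oocyte library C or 8-cell library B (adjusted p up to 0.109), and MASTL without the same libraries, where its fold change dropped below the limit. With quantile normalization 3 were higher and 2 lower, against 268 and 310 over all 4253 genes. CCNB2, a cyclin partner of CDK1, averaged 13.3 ± 1.02 RPKM in 8-cell embryos and 29.7 ± 16.0 RPKM in oocytes and was not called (adjusted p = 0.132). With the 12 libraries alone its adjusted p was 0.0242, at a log2 fold change of -0.974, under the limit. Quantile normalization called it lower (0.044).

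Genes of the cell cycle and DNA replication gave 6 higher and 0 lower of 50 tested, at a median of 0.42. The share of 12% higher compares with 8.02% of all genes tested. CDC6, which loads the replicative helicase, had 13.6, 15.4 and 14.04 RPKM in 8-cell libraries and 3.28, 3.25 and 3.002 RPKM in oocyte libraries (log2 fold change 1.88, adjusted p = 0.000489). TOP2A, the topoisomerase that untangles chromosomes, had 18.8, 19.3 and 15.6 RPKM in 8-cell libraries and 5.79, 7.35 and 3.96 RPKM in oocyte libraries (1.52, adjusted p = 0.0039). CDKN1C, an inhibitor of cyclin-dependent kinases and thus a brake on the cycle, had 4.18, 7.49 and 14.2 RPKM in 8-cell libraries and 1.07, 1.79 and 0.611 RPKM in oocyte libraries (2.05, adjusted p = 0.00978, and 0.0556 without 8-cell library C). CDC6 changed mainly by the 2-cell stage, and TOP2A and CDKN1C mainly after the 4-cell stage. The others were KIF23 (1.48), a kinesin of cytokinesis, and MCM10 (1.49) and RFC5 (1.02), of DNA replication, the last of which dropped below the fold limit without oocyte library C or 8-cell library C. Counts were 4 to 6 higher and 0 lower with any library left out.

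Among genes of messenger RNA decay and poly(A) tail control, 4 of 38 tested were higher and 0 lower, at a median of 0.29. The share of 10.5% higher lies near the 8.02% of all genes tested. PAIP2, a repressor of poly(A)-binding protein, averaged 3.71 ± 0.565 RPKM in 8-cell embryos and 0.629 ± 0.208 RPKM in oocytes (log2 fold change 1.53, adjusted p = 0.00123). TENT5C, a cytoplasmic poly(A) polymerase, averaged 4.68 ± 0.418 RPKM in 8-cell embryos and 1.33 ± 0.734 RPKM in oocytes (1.33, adjusted p = 0.0112, and 0.0721 without oocyte library C), with a higher level of 10.7 RPKM in 2-cell embryos. The other calls, PAPOLG (1.2), a poly(A) polymerase, and TOB1 (1.01), a recruiter of the CCR4-NOT deadenylase, depended on single libraries. PAPOLG was lost without oocyte library A or C or 8-cell library A or B (up to 0.152), and TOB1 without oocyte library B or C or 8-cell library C (up to 0.154). PAIP1, an activator of translation bound to poly(A)-binding protein, averaged 396 ± 26.2 RPKM in 8-cell embryos and 282 ± 8.88 RPKM in oocytes and was not called (adjusted p = 0.792). With only the 12 libraries from oocyte to 8-cell in the fit, the adjusted p of PAIP1 was 0.0304, at a log2 fold change of 0.484, under the limit. Without oocyte library C 1 gene of the list was called. With quantile normalization 3 of the list were higher and 2 lower, against 268 and 310 over all 4253 genes. Without the gene span, where long genes enter the test, 22 of 69 were higher and 1 lower. Over all genes that setting gave 1898 higher and 311 lower of 10384.

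Of 33 tested cytosolic ribosomal protein genes, 0 were higher and 5 lower (15.2%, against 3.48% of all genes tested), at a median of -0.18. RPL27 had 14.8, 10.9 and 10.2 RPKM in 8-cell libraries and 82.4, 56.2 and 69.7 RPKM in oocyte libraries (log2 fold change -2.44, adjusted p = 0.00147). RPS13 had 47.1, 34.3 and 37.2 RPKM in 8-cell libraries and 113, 98.0 and 90.1 RPKM in oocyte libraries (-1.33, adjusted p = 0.00744). RPL26L1 (-1.60), RPLP2 (-1.27) and RPL32 (-1.14) were lost without oocyte library A or 8-cell library B, with adjusted p up to 0.0616, 0.0818 and 0.0839, which leaves 2 of the 5. Quantile normalization gave 9 lower, against 310 lower over all 4253 genes. Processed copies of ribosomal protein genes are common in mammals, so their reads may be shared. The list of mitochondrial ribosomal proteins gave 1 higher (2.38%, against 8.02% of all genes tested), MRPL17, and 0 lower of 42 tested. It leaves out CHCHD1, which was called lower. Translation factors gave 1 higher (3.45%) and 0 lower of 29. That gene, EIF5, averaged 51.5 ± 7.58 RPKM in 8-cell embryos and 22.3 ± 5.86 RPKM in oocytes (1.2, adjusted p = 0.0312), and its call was lost without oocyte library A or C or 8-cell library A or B (up to 0.136).

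All 13 protein-coding genes of the mitochondrial genome had a positive fold change, at a median of 1.52, but 2 were called (15.4%, against 8.02% of all genes tested). In all, 15 genes of that genome were tested. ND4L, a subunit of respiratory complex I, had 358, 358 and 356 RPKM in 8-cell libraries and 64.8, 54.6 and 131 RPKM in oocyte libraries (log2 fold change 2.19, adjusted p = 0.00769). CYTB, of complex III, had 858, 603 and 480 RPKM in 8-cell libraries and 129, 118 and 495 RPKM in oocyte libraries (1.67, adjusted p = 0.0426). Oocyte library C lay within the 8-cell range for CYTB and apart from its mates for ND4L. Array weights gave 12 higher, quantile normalization 7 and the 12 libraries alone 6. Over all 4253 genes these settings gave 402, 268 and 415 higher. Without oocyte library C 8 of the 13 were called higher, and without any of the other 5 libraries 1 or 2. CYTB was lost in each of those 5 (up to 0.167). The share of reads was taken over all listed genes of the mitochondrial genome, not only these 13. It was 4.72, 3.29 and 2.10% of the reads in genes in 8-cell libraries and 0.953, 0.796 and 3.46% in oocyte libraries (exact two-sided permutation p = 0.3). Neighbouring mitochondrial genes abut or overlap, which makes the division of reads among them uncertain. Nuclear genes of oxidative phosphorylation gave 0 higher and 2 lower of 37 (5.41%, against 3.48% of all genes tested), at a median of -0.06. NDUFB4 averaged 1.37 ± 1.09 RPKM in 8-cell embryos and 7.30 ± 0.453 RPKM in oocytes (-1.90, adjusted p = 0.00453). NDUFA6, also of complex I, averaged 0.826 ± 0.321 RPKM in 8-cell embryos and 5.23 ± 2.19 RPKM in oocytes (-1.73, adjusted p = 0.00201).

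Heat shock and chaperone genes gave 6 higher (21.4%, against 8.02% of all genes tested) and 0 lower of 28 tested, at a median of 0.56. Beside HSPA8, HSPA9, the mitochondrial HSP70, had 6.18, 7.61 and 3.97 RPKM in 8-cell libraries and 0.930, 1.10 and 0.505 RPKM in oocyte libraries (log2 fold change 1.89, adjusted p = 0.00105). HSPA5, the HSP70 of the endoplasmic reticulum, had 4.84, 9.12 and 4.67 RPKM in 8-cell libraries and 1.61, 1.07 and 1.39 RPKM in oocyte libraries (1.57, adjusted p = 0.00722, and 0.0538 without 8-cell library B). 8-cell library B was the highest for all 3 of these genes, and without it 2 of the 28 were called. HSPA2 (1.38) was called with each library left out. CCT3 (1.30), a chaperonin subunit, was lost without oocyte library C or 8-cell library B or C (up to 0.0552), and HSPA4L (1.12) without oocyte library A or C or 8-cell library B (up to 0.0943).

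**Figure D3:**
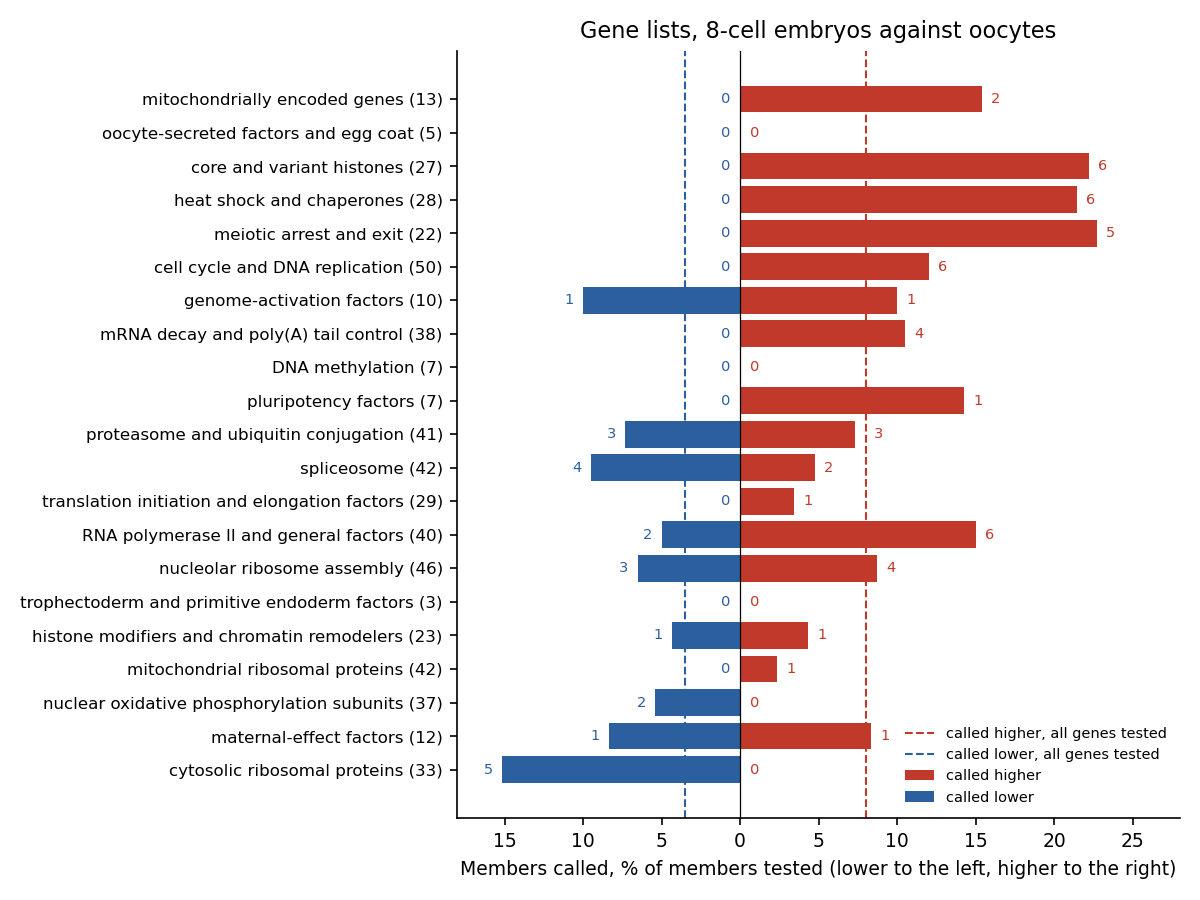
Share of the tested members of each gene list called higher (red, to the right) or lower (blue, to the left) in 8-cell embryos than in oocytes, with the number called beside each bar and the number tested in brackets; lists run from the highest median fold change at the top to the lowest. Dashed lines mark the shares over all genes tested, 8.02% higher and 3.48% lower.

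Of 40 tested genes of RNA polymerase II and the general factors, 6 were higher and 2 lower, at a median of 0.07. The shares of 15% higher and 5% lower compare with 8.02 and 3.48% of all genes tested, so the share that was lower lies near that of all genes. SUPT16H, of the histone chaperone FACT, had 4.48, 4.92 and 3.26 RPKM in 8-cell libraries and 1.03, 1.47 and 0.809 RPKM in oocyte libraries (log2 fold change 1.31, adjusted p = 0.00089). MED28 averaged 3.02 ± 0.227 RPKM in 8-cell embryos and 0.750 ± 0.272 RPKM in oocytes (1.21, adjusted p = 0.00499). GTF2B, which places the polymerase at promoters, averaged 2.06 ± 0.711 RPKM in 8-cell embryos and 6.91 ± 1.21 RPKM in oocytes (-1.38, adjusted p = 0.0164), a call lost without oocyte library C or 8-cell library A or B (up to 0.0692). MED21, like MED28 a Mediator subunit, averaged 9.16 ± 1.33 RPKM in 8-cell embryos and 24.1 ± 3.78 RPKM in oocytes (-1.30, adjusted p = 0.00823). The elongation factor subunit SUPT4H1 is given below with genes that oocytes hardly held. CDK8 (1.05) and MED1 (1.01), of Mediator, and GTF2F1 (1.17), of TFIIF, depended on single libraries. CDK8 fell under the fold limit without oocyte library C and MED1 without oocyte library C or 8-cell library A or B, and GTF2F1 was lost without oocyte library A or C or 8-cell library A or B (up to 0.0742). With quantile normalization the split was 3 higher and 5 lower, against 268 and 310 over all 4253 genes. SUPT4H1, GTF2F1, MED1 and MED28 had oocyte means below 1 RPKM and needed other stages to pass the filter. The 15% therefore carries no test.

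The spliceosome list gave 2 higher (4.76%) and 4 lower (9.52%) of 42 tested, at a median of 0.09. Over all genes tested, 8.02% were higher and 3.48% lower. SRSF10 averaged 5.61 ± 1.09 RPKM in 8-cell embryos and 1.89 ± 0.507 RPKM in oocytes (log2 fold change 1.2, adjusted p = 0.00554), and SNRNP35 (1.40) was lost with any library left out (adjusted p up to 0.101). SNRPB2, of the U2 particle, had 39.6, 31.9 and 36.9 RPKM in 8-cell libraries and 120, 99.6 and 100 RPKM in oocyte libraries (-1.53, adjusted p = 0.00913). LSM8 (-1.73) and SRSF7 were also lower, as was LSM7 (-1.08), which was lost without oocyte library A or B or 8-cell library A or B (up to 0.19). Nucleolar ribosome assembly gave 4 higher (8.70%) and 3 lower (6.52%) of 46, so the share that was higher lies near that of all genes. NOLC1 averaged 10.9 ± 2.56 RPKM in 8-cell embryos and 2.87 ± 0.826 RPKM in oocytes (1.62, adjusted p = 0.00233), whereas NOP58, of the box C/D particles, averaged 2.41 ± 0.840 RPKM and 8.90 ± 1.28 RPKM (-1.56, adjusted p = 0.00622). WDR75 (1.31) was also higher, as were TSR1 (1.16) and NMD3 (1.13), which dropped below the fold limit without oocyte library C. UTP3 (-1.45) and UTP23 (-1.16) were lower, the first lost without oocyte library A (0.0604) and the second without any of the 6 (up to 0.109).

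The proteasome and ubiquitin list gave 3 higher and 3 lower of 41 (7.32% each, against 8.02 and 3.48% of all genes tested). The share that was higher lies near that of all genes. PSMA7 fell to 10.1, 11.7 and 8.11 RPKM in 8-cell libraries, against 45.1, 35.7 and 31.8 RPKM in oocyte libraries. The proteasome subunits PSMA4 (log2 fold change -1.46) and PSMB3 (-1.39) were also lower. PSMA4 was lost without any of the 6 libraries (adjusted p up to 0.141) and PSMB3 without any but oocyte library B (up to 0.168). UBE2S (1.27), which extends ubiquitin chains for the anaphase-promoting complex, was lost without 8-cell library B (0.0531). PSMD11 (1.06), of the proteasome lid, fell under the fold limit without oocyte library C or 8-cell library B. Histone modifiers and chromatin remodelers gave 1 higher and 1 lower of 23 tested on RPKM (4.35% each, against 8.02 and 3.48% of all genes tested). PRMT1 (1.04), an arginine methyltransferase, dropped below the fold limit without oocyte library C or 8-cell library B, and SMARCE1 (-1.10), of the SWI/SNF complex, was lost without oocyte library A or 8-cell library C (up to 0.0713). Without the gene span 27 of 83 were higher and 1 lower, where many long genes of this list entered the test. Over all genes that setting gave 1898 higher and 311 lower of 10384, so the 8.02% is not its measure.

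The labels say nothing of genome activation, and genes used to mark that event were examined. Of 10 genome-activation genes tested, 1 was higher and 1 lower (10% each, against 8.02 and 3.48% of all genes tested). EIF1AX, a translation initiation factor often used as an activation marker in cattle, averaged 2.36 ± 0.0604 RPKM in 8-cell embryos and 3.58 ± 0.796 RPKM in oocytes and was not called. MYCL averaged 4.40 ± 1.37 RPKM in 8-cell embryos and 1.56 ± 0.691 RPKM in oocytes (log2 fold change 1.08, adjusted p = 0.0404), and its call was lost without any library but oocyte library A (up to 0.178). NFYB, a subunit of the CCAAT-binding factor, averaged 4.00 ± 0.429 RPKM in 8-cell embryos and 9.99 ± 2.36 RPKM in oocytes (-1.12, adjusted p = 0.0174, lost without oocyte library A or C or 8-cell library B or C, up to 0.084). KLF17, a zinc-finger factor of early embryos, had 0.810, 1.67 and 2.24 RPKM in 8-cell libraries and no read in any oocyte library, with an adjusted p of 0.0516. It was called in 9 of 21 alternatives, which gave adjusted p values from 1.4e-05 to 0.547. With no read in oocytes, KLF17 passed the filter only through embryo stages, where it is higher, so its values are a description with no test. Of 7 pluripotency genes tested 1 (14.3%, against 8.02% of all genes tested) was higher, LIN28A, an RNA-binding protein by name but annotated here as a pseudogene. It averaged 2.74 ± 0.457 RPKM in 8-cell embryos and 0.840 ± 0.492 RPKM in oocytes (1.05, adjusted p = 0.00269). Its fold change dropped below the limit without oocyte library C or 8-cell library A. None of the 3 trophectoderm and primitive endoderm genes tested was called.

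Beside these markers, some transcripts that oocytes hardly held were abundant at the 8-cell stage. Of the 341 higher genes, 28 had no more than 3 reads in every oocyte library, and 16 of these had no read at all. Of all 4253 genes tested, 182 were this low in every oocyte library. A gene so low in oocytes entered the test only through some other stage, where it is higher. The values of the 28 are therefore a description with no test. The same limit holds for every other gene under 1 RPKM in all oocyte libraries, also where an adjusted p is printed. The largest step lay between the 4-cell and 8-cell stages for 24 of the 28, between 2-cell and 4-cell for 4, and between oocyte and 2-cell for 0. At the 2-cell stage 15 of the 28 were still at or under 3 reads in every library, and at the 4-cell stage 0. Their 8-cell means ran from 1.18 to 120 RPKM. Of the 28, 23 carry only an identifier. ENSCHIG00000007741, at 15:32454413-32454998, had 72.8, 73.8 and 213 RPKM in 8-cell libraries and no read in any oocyte or 2-cell library, at least 1191-fold higher by a floor of 3 reads per oocyte library. Library C carried much of that mean, and without it the bound was 728-fold. ENSCHIG00000015823, at 7:93151681-93152970, had 81.0, 129 and 121 RPKM in 8-cell libraries and at most 2 reads in any oocyte library. Over the 3 libraries of each stage it had 22091 reads in 8-cell embryos and 4 in oocytes, a ratio of 5395 per library size (95% exact counting interval 2107 to 19801). Such intervals pool the reads of a stage and cover counting error only, not the spread between libraries.

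The 5 with a symbol were HIST1H1T, HEXIM1, ZNF296, IER2 and SUPT4H1, and HEXIM1, ZNF296 and IER2 were singled out after their values were seen. HEXIM1, an inhibitor of the elongation factor P-TEFb, had 1.09, 2.75 and 3.80 RPKM in 8-cell libraries and 5 reads over the 3 oocyte libraries, a ratio of 74.0 (31.4 to 229). SUPT4H1, a subunit of the elongation factor DSIF, had 0.969, 1.92 and 2.79 RPKM in 8-cell libraries and 2 reads over the oocyte libraries, a ratio of 659 (182 to 5446). ZNF296, a zinc-finger protein, had 1.37, 3.96 and 1.61 RPKM in 8-cell libraries and no read in oocytes, at least 148-fold higher by the floor of 3 reads per library, and 94.9-fold without 8-cell library B. IER2, an immediate early gene, had 1.89, 1.80 and 2.76 RPKM in 8-cell libraries and 2 reads over the oocyte libraries, a ratio of 111 (30.3 to 921). Libraries differed in how far these genes had come. 8-cell library C was the highest of its stage for 18 of the 28 and A the lowest for 21, and 4-cell library B was the lowest of its stage for 24.

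Of 23 histone genes with a symbol that were tested, 6 were higher (26.1%, against 8.02% of all genes tested) and 0 lower, at a median of 0.96, and for 5 of the 6 the largest step lay between the 4-cell and 8-cell stages. Among the 6, HIST1H1T, HIST1H1C and H2AFJ stood under 1 RPKM in every oocyte library. They passed the filter only through other stages, so the 26.1% carries no test. Beside H2AFZ and HIST2H2AC, the linker histone gene HIST1H1T had 3.51, 3.82 and 5.16 RPKM in 8-cell libraries and 1 read over the 3 oocyte libraries, a ratio of 403 (72.0 to 15972). H2AFJ (1.67) was lost without oocyte library C or 8-cell library A (up to 0.0614) and HIST1H1E (1.36) without any library but 8-cell library A (up to 0.173). The 23 genes gave 4 or 5 calls with any library left out, 3 with a pseudocount of 5 and 10 with the 12 libraries alone. Over all 4253 genes the last 2 settings gave 86 and 415 higher. The plotted list also holds 4 genes that encode no histone, SLBP, LSM10, LSM11 and NPAT, which serve histone transcription and messenger RNA processing, and none of these was called. HIST1H1T lies at 23:18138659-18139292 within a run of histone genes on chromosome 23, and this run was examined further after its values were seen. Between ENSCHIG00000009421, which starts at 18100301, and ENSCHIG00000009751, which stops at 18994464, 46 genes were tested, of which 23 were higher (50%) and 0 lower, against 8.02% higher over all genes. As the run was picked by its values, and some of its genes passed the filter only through embryo stages, the 50% carries no test. The 46 genes held 9 named histone genes, 3 of them higher, and 34 short genes with no name, 19 of them higher. The short higher genes spanned 381 to 1275 bases with a median of 393 and are annotated as protein-coding, with no name. Of the 43 named histone or short genes, 42 had a positive fold change. The exception, ENSCHIG00000011849, had 92.9, 65.0 and 205 RPKM in 8-cell libraries and 293, 292 and 311 RPKM in oocyte libraries (log2 fold change -1.47, adjusted p = 0.0568). Summed over the named histone and short genes of the run, the reads per M reads of the library overlapped between the stages. The sums were 129, 164 and 305 in 8-cell libraries A, B and C and 176, 168 and 153 in oocyte libraries A, B and C. They include ENSCHIG00000011849, whose oocyte mean of 299 RPKM was the highest of these genes, with the next at 21.2 RPKM. The overlap of the sums thus does not speak for the other genes.

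**Figure D4:**
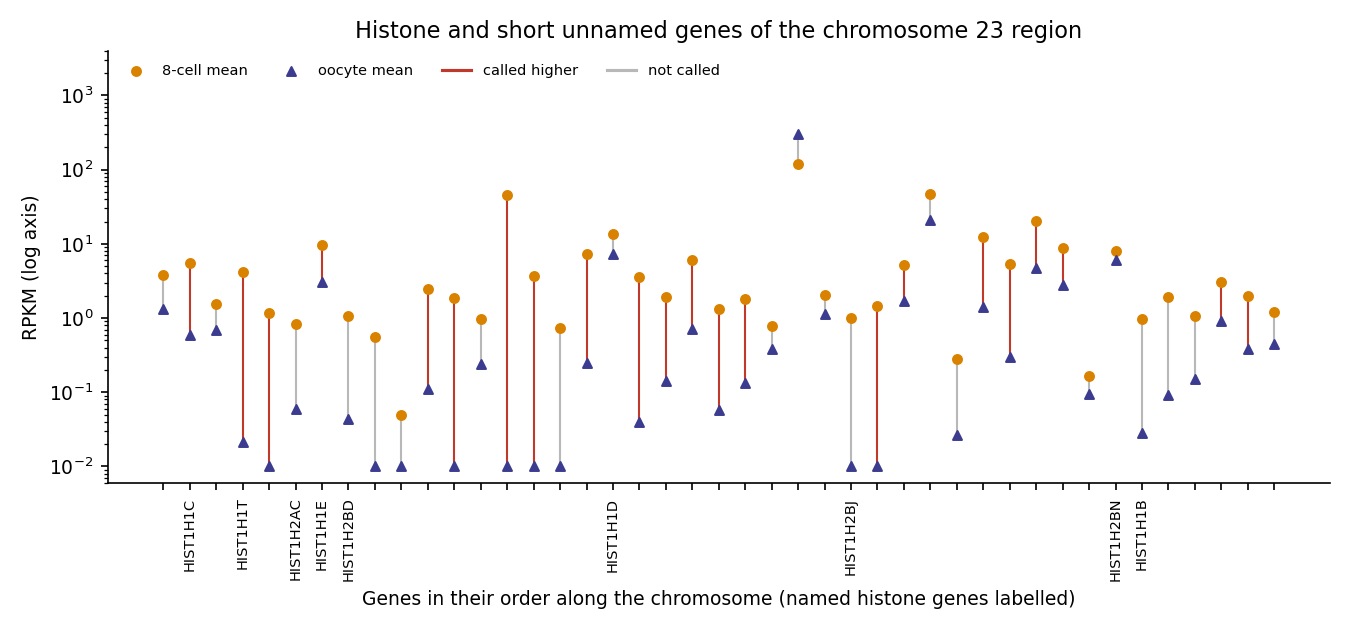
Mean RPKM on a log axis in 8-cell embryos (orange circles) and oocytes (blue triangles) for the 43 named histone genes and short unnamed genes tested in the chromosome 23 run, in their order along the chromosome; a value of 0.01 means no read. Red lines join the 22 genes called higher, and the circle lies above the triangle for 42 of the 43.

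The count in this run rested on the level and on single libraries. Of the 22 higher among the 43, 10 kept their call without 8-cell library C, 13 without oocyte library C, 14 without 8-cell library B, 15 with quantile normalization and 3 with a pseudocount of 5. In 10 of the 22 alternatives 1 of the 43 was called lower, among them the 12 libraries alone, quantile normalization and the fit without 8-cell library C. The 8-cell levels were low for most of these genes, and core histone genes are known to exist in near-identical copies, so reads may be shared; the sequences of these genes were not compared. HIST1H1C had 2.58, 6.41 and 7.61 RPKM in 8-cell libraries and 0.642, 0.615 and 0.515 RPKM in oocyte libraries. Its stages did not overlap (log2 fold change 1.94, adjusted p = 0.000759). Over the whole of chromosome 23, 26 of 147 genes tested were higher, so 23 of these 26 lay in the run.

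The 2-cell and 4-cell libraries placed the change in time. Of the 341 higher genes, 226 (66.3%) had their largest step between oocyte and 2-cell, 6 (1.76%) between 2-cell and 4-cell and 109 (32.0%) between 4-cell and 8-cell. Of the 148 lower genes, 61 (41.2%) had it between oocyte and 2-cell, 9 (6.08%) between 2-cell and 4-cell and 78 (52.7%) between 4-cell and 8-cell. Rises had reached a median of 67.0% of the change by the 2-cell and 54.4% by the 4-cell stage, and falls 44.9 and 49.2%. Both series share the oocyte and 8-cell libraries with the calls, so these shares carry no test. The share of rises with the largest step between 4-cell and 8-cell was 47.4% with median-ratio scaling, 44.0% with quantile normalization and 16.0% without the gene span. The order of the falls depends on scaling as well: 60.4% of the lower genes had the largest step between oocyte and 2-cell with median-ratio scaling and 62.6% with quantile normalization. The smallest share of genes stepped between 2-cell and 4-cell in each of these settings.

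**Figure D5:**
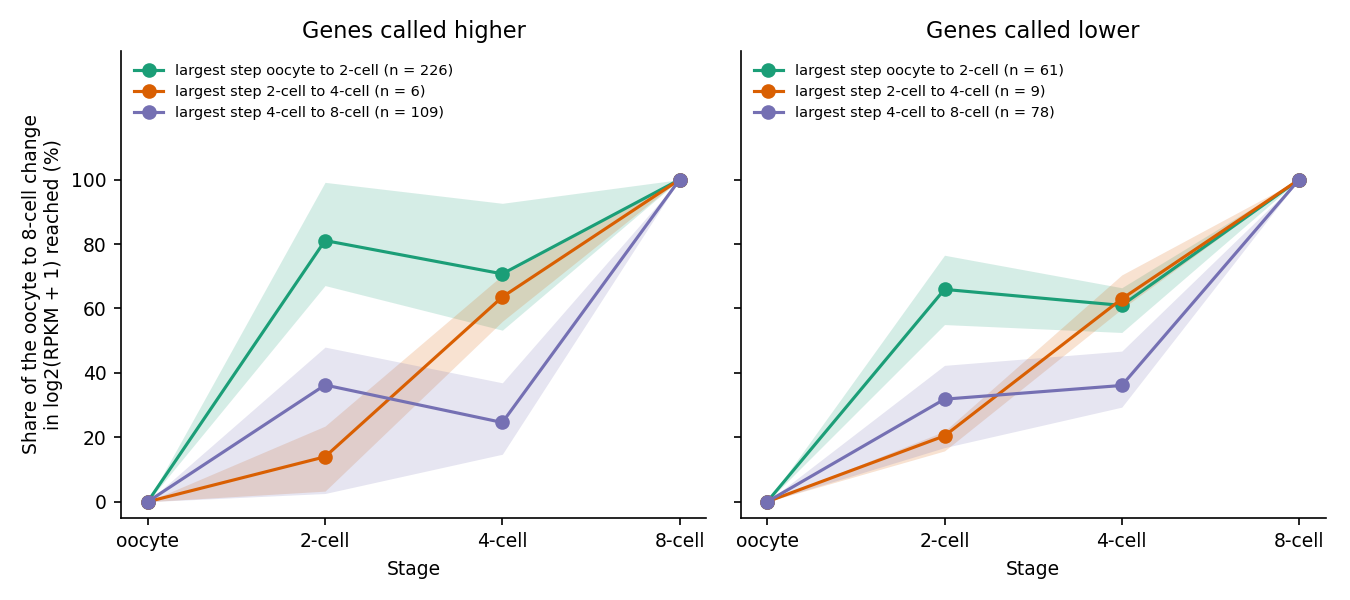
Share of the oocyte to 8-cell change in log2(RPKM + 1) reached at each stage, in %, for genes called higher (left) and lower (right), split by the interval of their largest step. Lines are medians over genes and bands run from the lower to the upper quartile; between the 2-cell and 4-cell stages the lines of the 226 and 109 rises dip, and few genes (6 and 9) take their largest step there.

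Transcripts of other cell types were low in both stages. The summed level of 18 cumulus and granulosa genes ran from 3.89 to 4.07 RPKM in 8-cell libraries and from 4.42 to 6.62 RPKM in oocyte libraries, and FSHR, LHCGR, AMH and INHA had no read in any of them. Of the 2 tested, STAR, which carries cholesterol into mitochondria, was lower, at 2.10, 1.27 and 1.43 RPKM in 8-cell libraries and 4.31, 3.09 and 5.86 RPKM in oocyte libraries (log2 fold change -1.04, adjusted p = 0.0222). Its call was lost without oocyte library A or C or 8-cell library B or C (up to 0.109). The other, VCAN, a matrix proteoglycan, was not called by size and lay the other way, at 1.43 ± 0.161 RPKM in 8-cell embryos and 0.557 ± 0.285 RPKM in oocytes (0.66, adjusted p = 0.00466). None of the tested genes of the oviduct (2), stroma (3) and sperm (1) lists was called, and none of the 11 blood genes passed the filter. Summed levels of the blood and immune genes reached 4.39 RPKM in 1 8-cell library, against at most 0.0494 RPKM in oocyte libraries, and the part of these cells in the result was not tested.

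Genes called on RPKM had shorter loci at the median. The median span from start to stop was 4605 bases for higher genes and 4594.5 bases for lower genes, against 7995 bases for all genes tested. RPKM divides by the whole locus, and RPKM + 1 understates the change of low genes, so span and call are not independent. Without the gene span 1898 of 10384 genes were higher and 311 lower. The part of the unit in the shorter span was not tested. Of the higher genes 127 (37.2%) and of the lower genes 70 (47.3%) carried no symbol, against 35.0% of all genes tested. The median oocyte level was 1.24 RPKM for higher genes and 12.04 RPKM for lower genes, against 1.27 RPKM for all genes tested. Of the higher genes 145 (42.5%) lay below 1 RPKM in oocytes, against 42.7% of all genes tested, and a fall of 1 log2 unit of RPKM + 1 cannot be reached from there, so 0 of the lower genes did.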

How the data were processed

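RNA was sequenced in 3 libraries at each of 7 stages, and samples were grouped by title. The authors deposited RPKM values for 19040 genes. The submitters' processing notes name STAR 2.5.3a, Partek and FastQC. Build, strandedness and the way reads were counted were not given in the sources used here, so reads of overlapping, antisense or near-identical genes may be shared, and coordinates are those of the table. The deposited RPKM values include 0.01 added to each value and use the whole locus as gene length, since 95.9 to 96.5% of low values in the 6 libraries compared fell within 0.05 steps of a whole number of steps, read as whole reads. For a gene of 10 kb, 3 reads were 0.00537 to 0.00641 RPKM; this floor covers counting error only.

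The filter kept genes reaching 1 RPKM in 3 libraries or more. Values of log2(RPKM + 1) entered limma 3.58.1 (R 4.3.3; trend and robust variance, two-sided), in a single model of 7 stages and 21 libraries. In data simulated for this comparison over 4253 genes, an adjusted p below 0.05 was reached by 93 of 100 genes changed by 2 log2 units, 60 of 100 changed by 1 unit and 10 of 4053 left the same. The simulation gave each gene normal noise with a single spread for all stages, and the fold limit of a call was not applied. Real stages need not share their spread, so these counts may not hold for them. The log2(RPKM + 1) scale understates the change of low genes. Tables and figures used Python 3.11.15, pandas 2.3.3, scipy 1.17.1 and matplotlib 3.10.9. Alternatives covered pseudocount, filter, scaling, gene span, libraries, weights, a replicate block and each library left out. Named genes are the 14 largest rises and 14 largest falls that are called, carry a symbol, do not overlap between stages and reach 10 RPKM, up to 3 rises and 3 falls per gene list, and a set of tracked genes. All lists, rules and tests were chosen with earlier results of these data known. CCNB1, ZAR1, NLRP5 and CPEB1 were not analysed here. PADI6, ZFP36L2, PABPC1L and YBX2 lay below the filter. No sequence is shown, as none was used here. A gene of the proteasome and ubiquitin list is counted but not reported here by name.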

Additional observations from a re-analysis of the deposited data

How the results depend on the processing

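The number of genes called ranged from 325 to 469 when 1 library was left out, that of higher genes from 230 to 344 and that of lower genes from 77 to 143. A pseudocount of 0.1 gave 854 calls (656 higher) and a pseudocount of 5 gave 157 (86 higher and 71 lower). A filter of 5 RPKM gave 212 higher genes, quantile normalization 310 lower and array weights 291 lower. Without the gene span 2209 of 10384 genes were called (1898 higher and 311 lower), and 1881 (1504 and 377) when scaled to the reads in the listed genes; these settings test many long genes that RPKM leaves below the filter. The other alternatives moved these counts by less than 1.5 times. The median log2 change of all genes, 0.15, was -0.0103 with quantile normalization, 0.18 with median-ratio scaling, 0.084 scaled to the reads in the listed genes, 0.41 without the gene span and 0.35 when this was also scaled to those reads. It was 0.33 and 0.047 with pseudocounts of 0.1 and 5, 0.11 with the filter of 5 RPKM, 0.0064 with no filter, 0.24 with the filter on the 6 libraries, 0.11 with array weights and 0.12 to 0.17 with a library left out. Fits on 12 and on 6 libraries gave 614 and 607 calls. The labels do not say whether the letters A to C link libraries across stages. Deviations of same-lettered oocyte and 8-cell libraries from their stage means correlated at -0.0883, -0.0578 and -0.154. With 3 libraries per stage these values cannot show whether a letter stands for a shared animal or batch. A replicate block on the letter gave 493 calls (341 higher and 152 lower). A pseudocount of 5 ended or withheld the calls of 32 named genes, and leaving out 8-cell library B those of 24; the cause was not tested. Depth limits genes near 3 reads, where a difference was not detectable.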
